A study of Mus musculus with 18 samples.

Results

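The 36 genes described here encode nuclear subunits of respiratory complex I, the NADH dehydrogenase of the inner mitochondrial membrane, and were taken by their symbols out of the 10597 genes in the deposited tables. They were measured in the left ventricles of 5 mORF4/NBDY KO mice and 4 WT mice. All 9 mice were male, of strain C57BL/6 and 20 weeks old, and the labels record no treatment. How the KO allele was made is not given in the labels. By its name the mORF4/NBDY KO targets Nbdy, whose small protein is known to bind the mRNA decapping complex. That protein was not measured here. Each ventricle gave 1 poly-A RNA library and 1 library of ribosome footprints, the short stretches of mRNA that a ribosome shields from nuclease, so 18 libraries were compared. The values average over all cell types of the ventricle, and a lower level of an mRNA in a cell type cannot be told apart from fewer cells of that type.

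Complex I oxidises NADH in the mitochondrial matrix, passes the electrons along a flavin and a chain of iron-sulfur clusters to ubiquinone, and pumps protons across the inner membrane. It is L-shaped, with a peripheral arm in the matrix that carries the redox centres and a membrane arm that carries the proton channels. Its core subunits are conserved from bacteria, with those of the membrane arm encoded by mitochondrial DNA, and the accessory subunits around them are needed for assembly or stability. Heart muscle is among the tissues richest in the complex. The mitochondrially encoded subunits and Ndufb1 were not analysed here.

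Values are normalized reads, that is, gene counts divided by 1 size factor per library. Fold changes are given as log2 of KO over WT, and a gene was called where limma's test, adjusted over all genes tested by the Benjamini-Hochberg method, gave p below 0.05. All 36 members passed the minimum mean of 10 normalized reads in both assays. Dividing each library's values by the smallest one above 0 gave whole numbers for 100% of genes in both assays (within 0.01 reads). These whole reads were summed over the deposited genes to the depth, so reads of other genes are not counted in it. RNA libraries held 15.8 to 20.2 M reads (M, mega) in KO hearts and 11.2 to 12.4 M in WT hearts, so depth did not overlap between genotypes and its part cannot be told apart from theirs. Footprint libraries held 22.9 to 40.8 M reads in KO hearts and 6.67 to 36.7 M in WT hearts, of which WT heart 2 was the shallowest. Nbdy itself was called lower in KO hearts in RNA (log2 fold change -0.59, limma adjusted p = 0.00246) and in footprints (log2 fold change -3.45, limma adjusted p = 0.0191).

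The 8 cardiomyocyte markers summed to 1566820 to 1794930 normalized RNA reads in KO hearts and 1761630 to 2070060 in WT hearts, and the groups overlapped. The 5 endothelial markers summed to 10894 to 12777 in KO hearts and 13533 to 15549 in WT hearts, without overlap. The 2 of 3 skeletal muscle markers with an entry were Myh1 and Myh4. Their RNA summed to 23754 to 38477 in KO hearts and 44936 to 86151 in WT hearts, also without overlap. Their footprints summed to only 842 to 1447 in KO hearts and 849 to 1772 in WT hearts. The single entries for lymphocytes (Ighm, 124 to 227 in KO hearts and 231 to 334 in WT hearts) and adipocytes (Cidea, 429.8 to 571 in KO hearts and 627 to 721 in WT hearts) did not overlap either. Summed RNA markers of fibroblasts, macrophages, smooth muscle, atrium and erythrocytes overlapped between the genotypes. In footprints the sums of every list overlapped, also those of the endothelial, skeletal muscle, lymphocyte and adipocyte markers. Single markers within a list went both ways in RNA: of 5 macrophage markers 2 were called higher and 2 lower (Cd68, -1.05 on the log2 scale), of 5 smooth muscle and pericyte markers 3 higher (Tagln, 0.51) and 1 lower (Acta2, -0.41), and of the 8 cardiomyocyte markers 1 higher and 4 lower. Of all genes tested in RNA, 24.3% were called higher and 25.1% lower. The part of these markers in the differences between members was not tested.

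The promoters of 4 members are shown because they belong to the 2 subunits whose RNA was lowest in KO hearts relative to WT hearts and to 2 of the 3 whose RNA was highest. Each runs from 250 bases before the annotated start to 50 after it, on the gene's own strand, as given by RefSeq on GRCm38.p6. Capitals mark matches to 4 motifs searched on both strands, named after nuclear factors known to act on respiratory chain genes: the near-palindromic NRF1 motif, CCGGAAG (GABP), AAGATGGCG (YY1) and AAGGTCA (ERR, the oestrogen-related receptors). Ndufs5 lies at chr4:123712710-123718186 and its promoter at chr4:123718137-123718436 on the minus strand. Ndufs6 lies at chr13:73319876-73328482 and its promoter at chr13:73328433-73328732 on the minus strand. Ndufc1 lies at chr3:51405479-51408955 and its promoter at chr3:51408906-51409205 on the minus strand. Ndufa11 lies at chr17:56717762-56724248 and its promoter at chr17:56717512-56717811 on the plus strand.
Ndufs5: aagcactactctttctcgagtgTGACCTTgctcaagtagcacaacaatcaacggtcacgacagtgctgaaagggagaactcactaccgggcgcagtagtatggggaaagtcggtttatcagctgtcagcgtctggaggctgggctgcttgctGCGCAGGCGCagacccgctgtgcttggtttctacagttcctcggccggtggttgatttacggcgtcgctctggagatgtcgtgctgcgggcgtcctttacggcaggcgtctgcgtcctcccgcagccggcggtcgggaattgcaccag
Ndufs6: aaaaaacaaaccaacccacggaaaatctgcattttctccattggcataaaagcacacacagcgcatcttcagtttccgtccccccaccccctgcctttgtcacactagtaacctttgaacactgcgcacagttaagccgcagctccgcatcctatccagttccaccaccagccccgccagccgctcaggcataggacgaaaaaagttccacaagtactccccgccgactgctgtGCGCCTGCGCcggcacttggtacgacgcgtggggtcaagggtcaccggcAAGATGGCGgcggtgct
Ndufc1: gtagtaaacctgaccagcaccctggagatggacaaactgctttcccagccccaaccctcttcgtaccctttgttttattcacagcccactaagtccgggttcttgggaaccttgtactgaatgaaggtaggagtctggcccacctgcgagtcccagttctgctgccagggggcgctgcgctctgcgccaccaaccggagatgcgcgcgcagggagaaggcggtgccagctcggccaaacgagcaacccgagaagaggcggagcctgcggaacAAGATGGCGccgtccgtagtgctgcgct
Ndufa11: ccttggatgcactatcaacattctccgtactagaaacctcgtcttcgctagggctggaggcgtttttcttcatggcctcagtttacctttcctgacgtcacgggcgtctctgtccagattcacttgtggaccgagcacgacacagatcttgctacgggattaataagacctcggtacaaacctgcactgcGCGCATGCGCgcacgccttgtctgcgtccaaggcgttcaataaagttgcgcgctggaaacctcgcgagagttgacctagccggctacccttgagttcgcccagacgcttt

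With the first transcribed base counted as 0, the Ndufs5 window held the ERR letters on the reverse strand at -228 and the NRF1 letters on the reverse strand at -98. The Ndufs6 window held the NRF1 letters at -16 and the YY1 letters at 33, and the Ndufc1 window held the YY1 letters alone, at 22. In the Ndufa11 window the NRF1 letters at -60 read the same on both strands, so they are a single site counted once for the gene. Over the 33 members with a promoter entry, 16 held at least 1 of the 4 motifs (48.5%), compared with 17.8% of all 32851 mouse promoters in the table and 35.4% of the 8115 genes of the deposited tables that had one. Members and measured genes were counted once per gene, by any of their promoters (35 for the 33 members). The shares of all promoters, here and by motif, were counted per promoter and so are in another unit. The members' share was nearer to that of the genes measured in these hearts than to that of all promoters.

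By motif, the NRF1 letters were found for 7 members (21.2%, against 12.2% of the genes measured and 4.6% of all promoters), the GABP letters for 4 (12.1%, against 21.0% and 8.86%), the YY1 letters for 5 (15.2%, against 3.88% and 1.4%) and the ERR letters for 3 (9.09%, against 3.91% and 4.72%). Those with the NRF1 letters were Ndufs6, Ndufa5, Ndufa6, Ndufa8, Ndufa11, Ndufs5 and Ndufb4. Those with the YY1 letters were Ndufs7, Ndufs4, Ndufs6, Ndufa9 and Ndufc1, those with the GABP letters Ndufs3, Ndufs8, Ndufb6 and Ndufb7, and those with the ERR letters Ndufs5, Ndufb2 and Ndufb4. Of the 8 members with a promoter entry and lower RNA in KO hearts, 4 held the NRF1 letters, 1 the YY1, 2 the ERR and none the GABP letters. Of the 21 with higher RNA, 2 held the NRF1 letters, 4 the YY1, 4 the GABP and none the ERR letters. These counts describe letters in a window and were not tested.

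The RNA of complex I subunits differed between the genotypes in both directions. Of the 36 members, 22 were higher in KO hearts and 9 lower, and 5 did not pass the test. An unadjusted p below 0.05 was reached by 33 members, against 55.7% of all genes. Across all 10580 genes tested in RNA, 49.4% were called by the adjusted test, 24.3% higher and 25.1% lower, so that the share called lower among members (25%) was that of all genes and the share called higher (61.1%) was above it. In 30 members the KO and WT hearts did not overlap, 21 of them higher in KO hearts and 9 lower, where 40.5% of all genes did not overlap (19.8% higher and 20.6% lower). The median log2 fold change of the members was 0.22, compared with 0.01 over all genes, with a range of -1.39 to 1.15. At least 0.5 in either direction was reached by 17 members and at least 1 by 5. The members' share of the deposited genes' RNA reads was 1.30% to 1.40% in KO hearts and 1.12% to 1.22% in WT hearts, without overlap. Their summed normalized reads, 183687 to 202927 in KO hearts and 184929 to 189275 in WT hearts, overlapped.

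**Figure D1:**
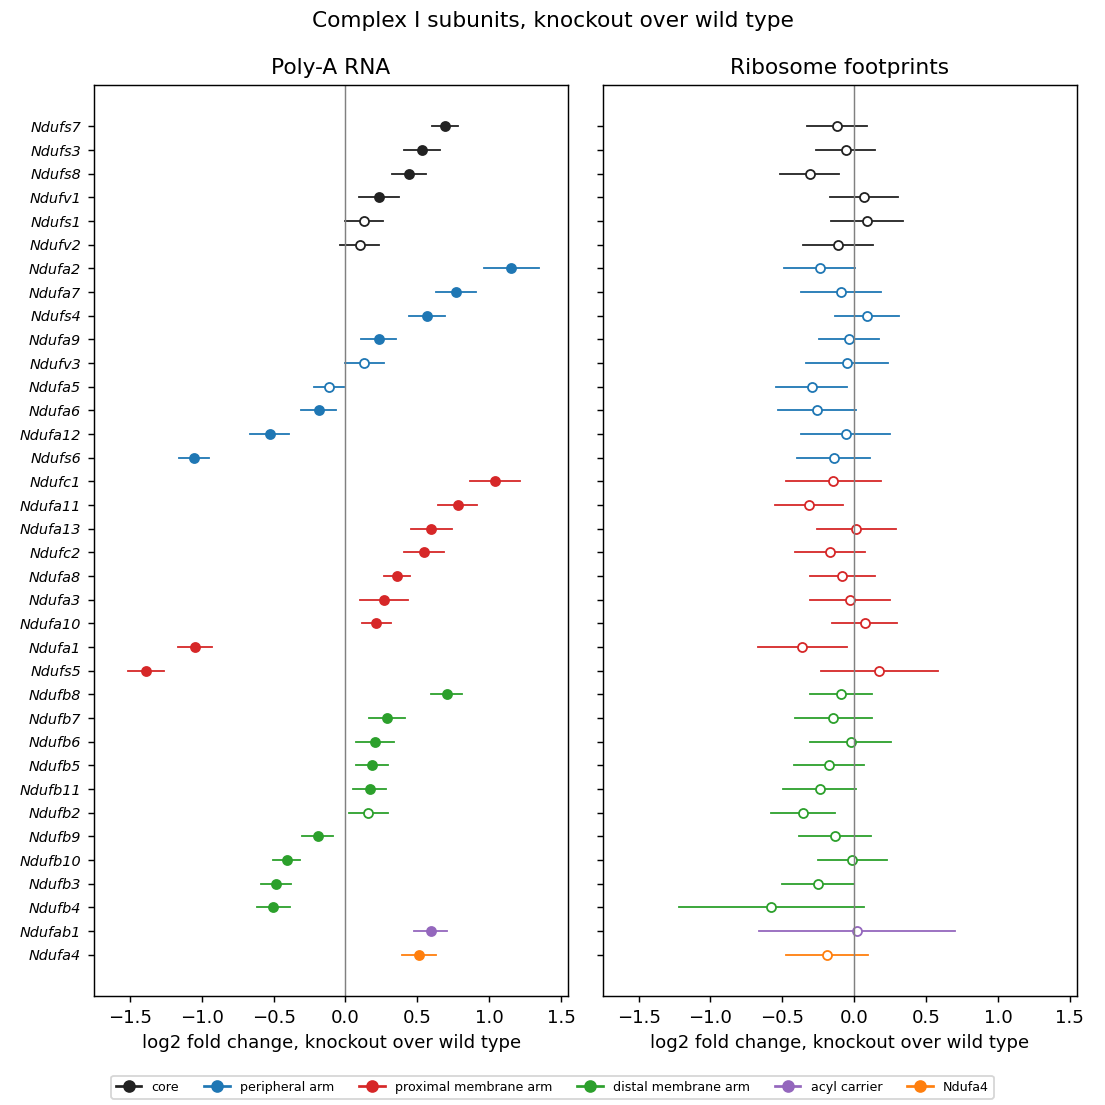
Log2 fold change of KO over WT with its 95% interval for each of the 36 complex I subunits, in poly-A RNA (left) and ribosome footprints (right), grouped by position in the complex, with filled points for genes past limma's adjusted p of 0.05. RNA values run from -1.39 to 1.15 with 31 filled points, while footprint values run from -0.58 to 0.18 with none.

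Among the core subunits of the peripheral arm, 4 of 6 were higher in KO hearts (66.7%, against 24.3% of all genes). None was lower, against 25.1% of all genes. Ndufs7, which holds the last iron-sulfur cluster before ubiquinone, had 5352, 5275, 5518, 5563 and 5492 normalized RNA reads in KO hearts 6 to 10, against 3504, 3302, 3363 and 3317 in WT hearts 1 to 4. Every KO heart was above every WT heart. The means were 5439.9 ± 121 in KO hearts and 3371 ± 91.8 in WT hearts (SD, n = 5 and 4), and the log2 fold change was 0.69 (standard error 0.0416, limma adjusted p = 3.62e-07). Ndufs3, a core subunit of the quinone-binding module, rose by 0.53 on the log2 scale, Ndufs8, which carries iron-sulfur clusters beside Ndufs7, by 0.44, and Ndufv1, which binds NADH and the flavin, by 0.23 (limma adjusted p at most 0.0105). For the cluster-bearing subunits Ndufs1 (0.13, limma adjusted p = 0.0982) and Ndufv2 (0.10, limma adjusted p = 0.205) the point estimates were above 0 and the test was not passed.

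The 9 accessory subunits of the peripheral arm divided, with 4 higher in KO hearts, 3 lower and 2 not called. The shares were 44.4% higher and 33.3% lower, against 24.3% and 25.1% of all genes. Ndufa2, a small subunit with a thioredoxin-like fold, had 1442, 1369.8, 1576, 1724 and 1462 normalized RNA reads in KO hearts, against 799, 662, 649.5 and 616 in WT hearts. The highest WT heart, heart 1, lay far below the lowest KO heart, and at 1.15 (standard error 0.0865, limma adjusted p = 1.48e-06) this was the largest rise among the members. Ndufs6, a zinc-binding subunit, had 4797, 4774, 5308, 5336 and 5007 normalized RNA reads in KO hearts, against 10310.3, 10638, 10399.7 and 10472 in WT hearts. Its KO hearts were at about the same level as each other and all far below the WT hearts, and the log2 fold change was -1.05 (standard error 0.0486, limma adjusted p = 1.04e-07).

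Of the other subunits of this arm, Ndufa7 rose by 0.77, Ndufs4, whose loss in mice gives a Leigh-like encephalopathy, by 0.57, and Ndufa9, which holds a nucleotide in a dehydrogenase-like fold, by 0.23. Ndufa12 fell to 7091 ± 302 normalized RNA reads in KO hearts, against 10248 ± 887 in WT hearts (SD, n = 5 and 4), a log2 fold change of -0.53 (limma adjusted p = 3.58e-05). Ndufa6, a member of the LYR family that docks the acyl carrier protein, had the smallest called difference of this arm, -0.19 (limma adjusted p = 0.0164). Ndufv3 (0.13) and Ndufa5 (-0.12) were not called, although Ndufv3 passed without WT heart 1 (limma adjusted p = 0.0262) and Ndufa5 without KO heart 9 (limma adjusted p = 0.0419).

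In the proximal part of the membrane arm all 9 accessory subunits were called, 7 higher in KO hearts and 2 lower. These were 77.8% and 22.2%, against 24.3% and 25.1% of all genes. Ndufs5, which sits on the intermembrane space side, had 2189, 2131, 2545, 2244 and 2347 normalized RNA reads in KO hearts, against 6176, 5899.7, 5725 and 6175 in WT hearts. The KO mean was 38.2% of the WT mean, the lowest such share of the 36 members, and no KO heart came near a WT heart (log2 fold change -1.39, standard error 0.0574, limma adjusted p = 9.75e-08). Ndufa1, a small membrane subunit encoded at chrX:37187588-37191238, had 3162, 2931, 3368, 3295 and 3250.4 normalized RNA reads in KO hearts, against 6371, 6981, 6353 and 6731 in WT hearts. Its KO mean was 48.4% of the WT mean, again without overlap (log2 fold change -1.05, standard error 0.0532, limma adjusted p = 1.69e-07).

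In the same part of the complex the rises reached a log2 fold change of 1.04. Ndufc1, a small membrane subunit, had 643, 572, 717, 634 and 667 normalized RNA reads in KO hearts, against 288, 345, 300.1 and 325 in WT hearts. The KO mean was 206% of the WT mean (standard error of the log2 fold change 0.0794, limma adjusted p = 1.73e-06). Ndufa11, which lies where complex I meets complex III in respiratory supercomplexes, had 4396, 4309, 4705, 5046 and 4599 normalized RNA reads in KO hearts, against 2959, 2546, 2685 and 2539 in WT hearts. Every KO heart was above every WT heart for both genes, and the log2 fold change of Ndufa11 was 0.78 (standard error 0.0623, limma adjusted p = 2.37e-06). Ndufa13, also known as GRIM-19, rose by 0.60, Ndufc2 by 0.55, Ndufa8 by 0.36, Ndufa3 by 0.27 and the kinase-like Ndufa10 by 0.22 (limma adjusted p at most 0.0130).

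**Figure D2:**
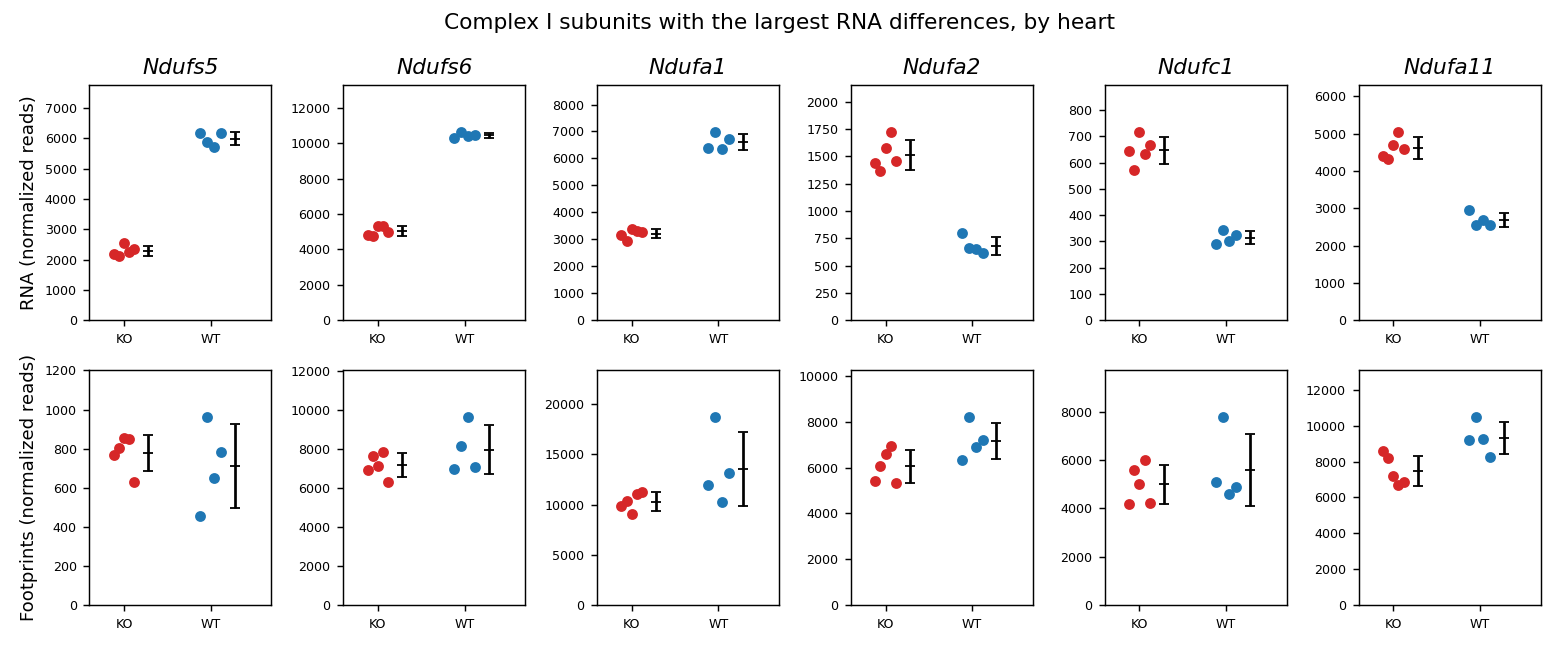
Normalized reads of 6 subunits in RNA (top) and footprints (bottom), with 1 point per heart, KO hearts left of WT hearts, and the mean with its SD beside each group; each panel has its own axis from 0. In RNA the genotypes do not overlap for any of the 6, while in footprints they overlap for all of them, as for Ndufs5 at 628 to 852 in KO hearts and 453 to 963 in WT hearts.

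The distal part of the membrane arm, farthest from the redox centres, held 5 rises and 4 falls among 10 members. These were 50% and 40%, against 24.3% and 25.1% of all genes. Ndufb8, whose protein is widely used as a marker of assembled complex I, had 8109, 8039, 9107, 8446 and 8102 normalized RNA reads in KO hearts, against 4971, 5157, 5329 and 5055 in WT hearts. All KO hearts were above all WT hearts, and the log2 fold change was 0.70 (standard error 0.0499, limma adjusted p = 1.07e-06). Ndufb7 rose by 0.29, Ndufb6 by 0.21, Ndufb5 by 0.19 and Ndufb11 by 0.17, and Ndufb2 had a log2 fold change of 0.16 without passing the test (limma adjusted p = 0.0528). Ndufb11 lost its call without WT heart 2 (limma adjusted p = 0.0625), and Ndufb2 gained one without KO heart 7 (limma adjusted p = 0.0180) and by edgeR on whole reads (edgeR adjusted p = 0.0390).

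Ndufb3 had 3039, 2988, 3379.8, 3206 and 3158 normalized RNA reads in KO hearts, against 4461, 4446, 4453 and 4284 in WT hearts, and Ndufb4 averaged 4467 ± 247 in KO hearts and 6319 ± 214 in WT hearts (SD, n = 5 and 4). Both are small membrane subunits, neither overlapped between genotypes, and the log2 fold changes were -0.48 for Ndufb3 (limma adjusted p = 9.56e-06) and -0.50 for Ndufb4 (limma adjusted p = 1.34e-05). Ndufb10, on the intermembrane space side, fell by 0.41 on the log2 scale and Ndufb9, another LYR protein, by 0.19. Under quantile normalization neither Ndufb9 nor Ndufa6 was called in RNA.

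Ndufab1, the mitochondrial acyl carrier protein, which is part of complex I and also carries growing fatty acids, had 5868, 5712, 6567, 6409.6 and 6016 normalized RNA reads in KO hearts, against 4133, 3849.8, 4127 and 4088 in WT hearts. Ndufa4, first described in complex I and since placed in cytochrome c oxidase, had 6578, 6311, 7158, 7315 and 6594 in KO hearts, against 4972, 4644, 4619 and 4819 in WT hearts. Both rose without overlap, Ndufab1 by 0.59 (limma adjusted p = 5.11e-06) and Ndufa4 by 0.51 (limma adjusted p = 1.68e-05). Leaving Ndufa4 out as no complex I subunit gave 21 higher and 9 lower of 35 in RNA.

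Within a genotype the extreme RNA values of many members came from the same hearts. KO heart 8 held the highest KO value for 19 of the 36 members and KO heart 9 for 16, while the lowest fell in KO heart 7 for 22 and in KO heart 6 for 11. Among WT hearts the highest value fell most often in heart 1, for 17 members, and the lowest most often in heart 2, for 13. This held for members that rose and for members that fell, since heart 8 held the highest KO value of Ndufs5 and of Ndufc1.

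For 6 members RefSeq names another gene or pseudogene as a copy. The RNA, footprint and efficiency values of these members are uncertain, since reads may have been split or moved between a gene and its copy. Copies were taken by symbol alone, and how alike their sequences are was not checked. They are Ndufs5 (copy Ndufs5-ps), Ndufs6 (Ndufs6b), Ndufa12 (Ndufa12-ps), Ndufa11 (Ndufa11b), Ndufab1 (Ndufab1-ps) and Ndufb4 (Ndufb4b and Ndufb4c, both annotated as protein coding). None of these copies has an entry in the deposited tables, and the counting of reads that match several places is not given in the sources used. The 6 took in 4 of the 9 members lower in KO hearts and 2 of the 22 higher ones. Among the 30 members without a named copy, 20 were higher in KO hearts, 5 were lower and 5 were not called, so the 5 lower ones were Ndufa1, Ndufb3, Ndufb10, Ndufb9 and Ndufa6. The part of the copies in the differences was not tested.

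The RNA libraries came from a kit that does not mark strand, so a member's reads cannot be told apart from those of a gene overlapping it. A gene with an entry in the tables overlaps 4 of the members. Tmco6, which overlaps Ndufa2, had 56.6 ± 5.79 normalized RNA reads in KO hearts and 40.9 ± 8.33 in WT hearts, and Rnf113a1, which overlaps Ndufa1, had 27.1 ± 7.28 in KO hearts and 25.8 ± 5.51 in WT hearts (SD, n = 5 and 4). Rbm10, which overlaps Ndufb11, was lower in KO hearts where Ndufb11 was higher (log2 fold change -0.35, limma adjusted p = 8.37e-04), and Ankrd12, which overlaps Ndufv2, was not called, like Ndufv2 itself. The part of overlapping genes in the members' differences was not tested.

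In ribosome footprints no complex I subunit was called in either direction. With limma, 0 of 36 members passed the adjusted test, where 0.02% of the 9976 genes tested were called, and the lowest adjusted p among members was 0.851. At an unadjusted p below 0.05 there were 6 members, against 5.06% of all genes tested. The edgeR quasi-likelihood test and DESeq2, both run on whole footprint reads, also called 0 members (unadjusted p below 0.05 for 5 by edgeR and 6 by DESeq2), and the authors' deposited table lists 0 members below an adjusted p of 0.05. The point estimates lay below 0 for 29 of the 36 members, with a median log2 fold change of -0.12 against -0.00 over all genes. The members' share of the deposited genes' footprint reads was 2.13% to 2.28% in KO hearts and 2.26% to 2.50% in WT hearts. These ranges overlapped.

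The 6 subunits with an unadjusted p below 0.05 all had a point estimate below 0. For Ndufb2 the footprints were 10449, 10633, 10651, 10915 and 10467 normalized reads in KO hearts, against 11685, 15469, 14679 and 12782 in WT hearts. For Ndufs8 they were 12710.1, 13490.2, 13414, 13421 and 15109 in KO hearts, against 17712, 16083, 16371 and 17331 in WT hearts. These were the 2 members whose groups did not overlap in footprints, where 1.6% of all genes did not and 0.832% did not with KO hearts lower, and neither passed the adjusted test (log2 fold change -0.35 for Ndufb2 and -0.31 for Ndufs8, limma adjusted p = 0.851 for both). The other 4 were Ndufa1 (-0.36), Ndufa11 (-0.31), Ndufa5 (-0.29) and Ndufb3 (-0.25), in which single hearts of the genotypes overlapped.

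The subunits with the largest RNA differences had overlapping footprints. Ndufs5 had 766, 803, 852, 848 and 628 normalized footprint reads in KO hearts, against 453, 963, 648 and 783 in WT hearts. The KO hearts lay inside the range of the WT hearts, and the log2 fold change was 0.18 (95% interval -0.23 to 0.58), an interval that does not reach the RNA value of -1.39. Ndufs6 had 6908, 7648, 7108, 7875 and 6306 in KO hearts, against 6971, 8183, 9661 and 7055 in WT hearts, with a log2 fold change of -0.14 (95% interval -0.40 to 0.11) against -1.05 in RNA. Ndufa1 had 9845, 10377, 9021, 11073 and 11218 in KO hearts, against 11991, 18765, 10239 and 13150.4 in WT hearts. WT heart 2 stood far above the other hearts for Ndufa1, and its interval of -0.67 to -0.05 lay below 0 and above its RNA value of -1.05.

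The footprints of the subunits with the largest RNA rises also overlapped between genotypes. Ndufa2 had 5429.5, 6059, 6612, 6968 and 5316 normalized footprint reads in KO hearts, against 6323, 8235, 6906 and 7234 in WT hearts. Ndufc1 had 4176, 5573, 5000.1, 6016 and 4213 in KO hearts, against 5088, 7797, 4594 and 4884 in WT hearts. Ndufa11 had 8580.2, 8206, 7187, 6677 and 6877 in KO hearts, against 9224, 10513, 9259 and 8288 in WT hearts. All 3 had point estimates below 0 and overlapping groups, with log2 fold changes of -0.24 for Ndufa2 (95% interval -0.49 to 0.01), -0.14 for Ndufc1 (-0.48 to 0.19) and -0.31 for Ndufa11 (-0.55 to -0.08). None of these intervals reached the RNA value of its gene.

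The footprint differences were narrow as well as uncalled. Their SD over the 36 members was 0.15 on the log2 scale, against 0.57 for RNA, and only Ndufb4, at -0.58, went beyond 0.5. The 95% intervals of 30 members included 0, and those of 34 lay within 0.7 on either side of 0. The exceptions were Ndufb4 (-1.22 to 0.07) and Ndufab1 (-0.66 to 0.70), the 2 members with the fewest footprints. Ndufb4 had 147 to 238 footprint reads before normalization in KO hearts and 111 to 426 in WT hearts, and Ndufab1 had 87 to 409 in KO hearts and 36 to 212 in WT hearts.

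WT heart 2, the shallowest footprint library, held the highest WT footprint value for 23 of the 36 members. Without it the point estimates lay below 0 for 22 members rather than 29, with a median of -0.06. Without KO heart 10 they lay below 0 for 26, and without any other single heart for 28 to 31. No member was called in footprints under any of these.

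**Figure D3:**
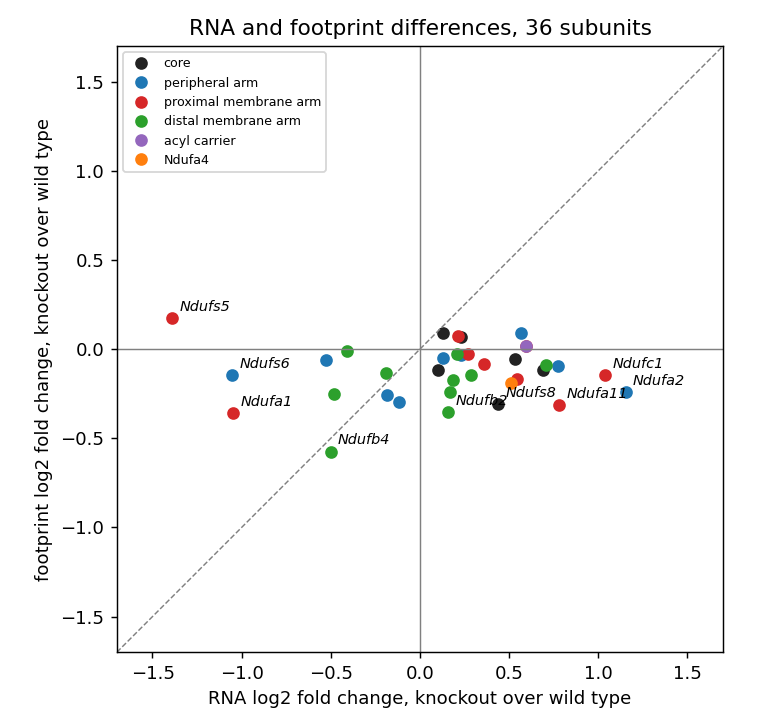
Log2 fold change of KO over WT in RNA (horizontal) against footprints (vertical) for the 36 subunits, on equal scales, with the dashed line where both would be the same. The points spread along the horizontal axis from Ndufs5 at -1.39 to Ndufa2 at 1.15 and stay within a narrow vertical band, with Ndufb4 lowest at -0.58.

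Across the 36 members the RNA and footprint differences were nearly unrelated, with Pearson's r of 0.06, Spearman's rho of 0.07 and a slope of 0.02 of footprints on RNA. The sign was shared by 15 members. Over all 9974 genes tested in both assays the same values were 0.07, 0.04 and 0.06. The points share the libraries of the same hearts and their depths, and the values are descriptions over genes, which are not independent replicates.

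Translational efficiency, the ratio of footprints to RNA of the same heart, was tested over all 18 libraries by the interaction of genotype with assay. This fit took the libraries of a heart as independent. A fit that pairs them, with the heart as a replicate block, is given below as an alternative. By limma 5 members were higher in KO hearts and 16 lower, and 15 were not called. Of the 9974 genes tested, 14.4% were called, 7.83% higher and 6.55% lower. The ratios of the genotypes did not overlap for 4 members higher in KO hearts and 17 lower, against 9.55% and 8.73% of all genes. The median log2 difference of the members was -0.33, against -0.02 over all genes. Quantile normalization called 3 members higher and 19 lower, against 618 and 691 of the 9974 genes tested. The RNA values enter this test, so it is no measurement separate from the RNA differences. All 5 members with higher efficiency were among the 9 with lower RNA, and 15 of the 16 with lower efficiency were among the 22 with higher RNA. The remaining one, Ndufb2, was not called in RNA, and no member was called in the same direction in both.

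Ndufs5, a member with a named copy, had the largest efficiency difference of the members. Its footprint over RNA ratio was 0.350, 0.377, 0.335, 0.378 and 0.267 in KO hearts, against 0.0733, 0.163, 0.113 and 0.127 in WT hearts. The lowest KO heart, heart 10, was above the highest WT heart, heart 2 (log2 difference 1.56, standard error 0.210, limma adjusted p = 7.80e-05). Ndufs6 had ratios of 1.44, 1.60, 1.34, 1.48 and 1.26 in KO hearts, against 0.676, 0.769, 0.929 and 0.674 in WT hearts, also without overlap (log2 difference 0.91, standard error 0.126, limma adjusted p = 1.07e-04). The higher efficiency of Ndufa1 (0.69, limma adjusted p = 0.0103) came with overlapping groups, since WT heart 2 had a ratio of 2.69 and KO heart 8 one of 2.68. Ndufa12 (0.47, limma adjusted p = 0.0419) and Ndufb10 (0.40, limma adjusted p = 0.0237) completed the 5.

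In the other direction Ndufa2 led. Its ratio was 3.76, 4.42, 4.20, 4.04 and 3.64 in KO hearts, against 7.91, 12.4, 10.6 and 11.8 in WT hearts, a log2 difference of -1.39 (standard error 0.146, limma adjusted p = 9.51e-06). Ndufc1 had ratios of 6.49, 9.74, 6.97, 9.49 and 6.32 in KO hearts, against 17.7, 22.6, 15.3 and 15.0 in WT hearts, a log2 difference of -1.18 (standard error 0.195, limma adjusted p = 4.67e-04). For both genes every KO heart was below every WT heart, as it was for Ndufa11 (-1.10, limma adjusted p = 1.51e-05).

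Lower efficiency reached each region of the complex. Among core subunits it was called for Ndufs7 (-0.81), Ndufs8 (-0.75) and Ndufs3 (-0.59), and in the peripheral arm for Ndufa7 (-0.86) and Ndufs4 (-0.48) beside Ndufa2. In the proximal membrane arm Ndufc2 (-0.71), Ndufa13 (-0.58) and Ndufa8 (-0.44) joined Ndufc1 and Ndufa11. In the distal membrane arm the calls were Ndufb8 (-0.80), Ndufb2 (-0.51), Ndufb7 (-0.43) and Ndufb11 (-0.41), and Ndufa4 was lower by a log2 difference of -0.70 (limma adjusted p = 0.00458). Ndufab1 was not called at its log2 difference of -0.57 (limma adjusted p = 0.199), although it was without KO heart 6 (limma adjusted p = 0.0158), and Ndufa9 (-0.27, limma adjusted p = 0.0745) was called without WT heart 2 (limma adjusted p = 0.0330).

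Ndufa12, Ndufb10, Ndufb7 and Ndufb11 passed the efficiency test narrowly. The limma adjusted p was 0.0490 for Ndufb7 and 0.0435 for Ndufb11, and each of the 4 lost its call when at least 3 of the hearts were left out singly. Ndufa12 was not called by edgeR on whole reads (edgeR adjusted p = 0.0513), while DESeq2 on whole reads called it. Without WT heart 3 or WT heart 4, Ndufa12 and Ndufb10 both lost it, which left 3 members with higher efficiency. With the heart as a replicate block, which called 9.92% of all genes higher in KO hearts and 8.65% lower, all 21 members stayed called and Ndufb5 was added (limma adjusted p = 0.0311 in place of 0.0513).

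The authors' deposited table gives each gene a tag from their own comparison of the assays. It tags 22 of the 36 members (61.1%) as "buffered", a tag it gives to 15.2% of all genes, and the other 14 as "unchanged". The deposited tag rests on the same libraries and is not independent of the values above. Its 22 members are the 21 called here less Ndufb2, with Ndufa9 and Ndufb5 added, and it gives an adjusted p of 0.0163 for Ndufa9 and 0.0194 for Ndufb5.

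The footprint over RNA ratio, in which a gene's length cancels only where both assays were counted over the same features, differed widely between members. In WT hearts it averaged from 0.0294 for Ndufab1 to 17.7 for Ndufc1, with a median over members of 2.89 in KO hearts and 3.46 in WT hearts, against 1.49 in KO hearts and 1.45 in WT hearts over all genes. The 5 lowest WT means were those of Ndufab1 (0.0294), Ndufb4 (0.0400), Ndufs5 (0.119), Ndufa12 (0.127) and Ndufs6 (0.762), and all 5 have a named copy. The remaining gene with a copy, Ndufa11, had 1.64 in KO hearts and 3.49 in WT hearts, and the 30 members without one started at 0.815 in WT hearts. This overlap with the copies was noticed after the values were seen, and its part in the ratios was not tested.

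**Figure D4:**
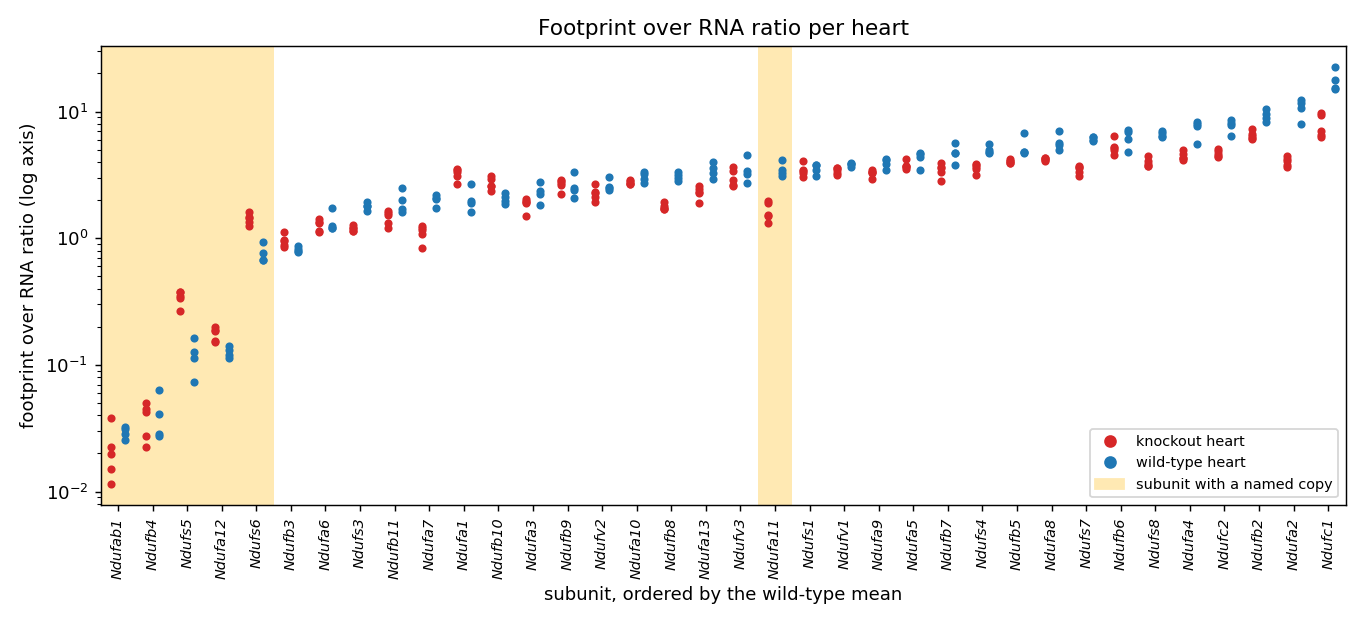
Footprint over RNA ratio of each subunit on a log axis, with 1 point per heart, KO hearts left of WT hearts, subunits in order of the WT mean and shading for the 6 with a named copy. The ratios run from below 0.1 for Ndufab1 and Ndufb4 to above 10 in WT hearts for Ndufc1, and 5 of the 6 shaded subunits stand at the low end.

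The genes that act on complex I were looked at from lists chosen for their known roles. Assembly factors build the complex without staying in it, and 20 of the 21 listed had an entry. In RNA 10 of these were higher in KO hearts (50%, against 24.3% of all genes) and 3 lower (15%, against 25.1%). The median log2 fold change was 0.16. Ttc19 (log2 fold change -0.29), listed here but known as a factor of complex III, was among the 3 lower ones. Ndufaf2, a relative of Ndufa12 that holds its place during assembly, had 330.4 ± 34.2 normalized RNA reads in KO hearts and 558 ± 32.4 in WT hearts (SD, n = 5 and 4), a log2 fold change of -0.76 (limma adjusted p = 2.51e-05), lower like Ndufa12. Ndufaf3 (0.62), Ndufaf8 (0.95) and Tmem70 (0.33) rose. In footprints none of the 20 was called by limma, against 0.02% of all genes. An unadjusted p below 0.05 was reached by 2 of them, against 5.06% of all genes. In efficiency 1 was higher, Ndufaf2 at 0.56 (5%, against 7.83% of all genes), and 6 were lower (30%, against 6.55%).

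Of 10 regulators of respiratory chain genes, 2 had more RNA in KO hearts and 4 less, 60% called in either direction against 49.4% of all genes. Gabpa, the DNA-binding subunit of the factor GABP, had 768 ± 39.1 normalized RNA reads in KO hearts and 1332 ± 94.1 in WT hearts, and Ppargc1a, a coactivator of mitochondrial biogenesis, had 1670.5 ± 134 in KO hearts and 2715 ± 78.4 in WT hearts (SD, n = 5 and 4). Both fell, Gabpa by 0.79 and Ppargc1a by 0.70 on the log2 scale, while Esrra, an oestrogen-related receptor, rose by 0.38 and the fatty acid sensor Ppara by 0.58. Nrf1 had a log2 fold change of 0.00 and was not called. In footprints none of the 10 was called by limma and none had an unadjusted p below 0.05, against 0.02% and 5.06% of all genes. In efficiency Gabpa (0.90) and Ppargc1a (0.80) were higher and Esrra (-0.43) was lower, 30% called in either direction against 14.4% of all genes.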

How the data were processed

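Poly-A RNA and ribosome footprints were measured in the same 9 left ventricles. The authors deposited, for 10597 genes, a normalized read signal per library in each assay and a footprint over RNA ratio per heart, with their own log2 fold changes and p-values per the file headers. The deposited ratio equalled the quotient of the signals within 0.0497%. Per the labels, the kits were TruSeq RNA v2, which keeps no strand, for RNA and NEXTflex Small RNA-Seq v3 for footprints. The build GRCm38 (mm10) and the tools DESeq2, HTSeq and STAR 2.7.1a are named, without roles, per the submitters' processing notes. The deposited efficiency fold change is WT over KO, since its sign is opposite to the one computed here in 95.3% of genes; all differences printed are KO over WT.

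Members were matched by gene symbol. Log2(value + 1) was fitted with limma 3.58.1 and a mean-variance trend in R 4.3.3, over genes with a mean of at least 10, so fold changes understate those of low genes. The assays were fitted separately on genotype, and efficiency by the interaction of genotype with assay over both, with Benjamini-Hochberg adjustment over all genes. The main efficiency fit did not pair the libraries of a heart. The deposited signal gave back whole counts for 100% of values in both assays (tolerance 0.01 reads), so edgeR 4.0.16 and DESeq2 1.42.0 were run on these as an alternative. The fits were tested on simulated data. Nothing in the labels says whether libraries of a genotype came from separate litters or days, so p-values measure the spread between these hearts. Per the labels, RNA and footprints of 1 number come from the same heart. Deviations from the genotype mean over 6082 genes correlated between the assays of a heart with r of 0.237 to 0.575, against a median of -0.0809 between hearts. The best match was the library of the same number for 8 hearts, but not for every heart.

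All 36 members and Nbdy were named, and up to 4 called genes of each companion list by adjusted p. Members, lists, motifs and tests were chosen with earlier results of these data known. The overlapping genes and named copies were chosen after the values were seen.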

Additional observations from a re-analysis of the deposited data

Results flagged for a closer look

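In 11 of 216 groups of hearts (36 members, 3 measures and 2 genotypes), 1 heart stood apart from the rest of its group by a gap above Dixon's 95% critical value. Chance alone sets apart about 1 group in 20 (5%), and the hearts are given as values only. In 6 of the 11 the heart was WT heart 2 with a high footprint value or ratio. Its footprints were 21643 normalized reads for Ndufv3, where the other WT hearts had 14033 to 14585, and 9319 for Ndufa6, where they had 6190.1 to 6383. They were 7797 for Ndufc1, where the other WT hearts had 4594 to 5088, and 33078 for Ndufb5, where they had 23661 to 25123. Its footprint over RNA ratio was 1.72 for Ndufa6, where the other WT hearts had 1.20 to 1.24, and 6.74 for Ndufb5, where they had 4.71 to 4.83. In RNA, WT heart 2 was low for Ndufab1 at 3850 normalized reads, where the other WT hearts had 4088 to 4133, and WT heart 4 was low for Ndufb3 at 4284, where they had 4446 to 4461. Among KO hearts, heart 10 was low in footprints for Ndufa13 at 11637, where the other KO hearts had 15440 to 16949, and in the ratio for Ndufa3 at 1.49, where they had 1.90 to 2.04. KO heart 9 was high in footprints for Ndufa4 at 36649, where the other KO hearts had 28469 to 29570.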

How the results depend on the processing

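The counts of members higher and lower in KO hearts were recomputed under other pseudocounts (0.5 and 5), other minimum means, TMM factors, quantile normalization, the authors' deposited tests, count tests on whole reads, the heart as a replicate block and leaving out each heart. In RNA the count of higher members was 21 to 23 without single hearts and that of lower members 9 or 10. Over all genes these counts were 2353 to 2482 and 2415 to 2582. Quantile normalization gave 26 higher and 7 lower members in RNA, with a median of 0.32. It called 2626 of the 10580 genes tested higher and 2538 lower. In footprints the count remained 0 under every alternative run, with medians of -0.14 to -0.06 without single hearts. In efficiency quantile normalization gave 3 higher and 19 lower members with a median of -0.44, and 618 higher and 691 lower over all genes. Leaving out single hearts gave 3 to 5 higher and 14 to 16 lower members, with medians of -0.40 to -0.26. Over all genes that gave 552 to 664 higher and 441 to 556 lower. The paired analysis (heart as replicate block) gave 5 higher and 17 lower members and called 989 genes higher and 863 lower, against 781 and 653 without the block. Without the 6 members that have a named copy, an alternative chosen after seeing the data, RNA gave 20 higher and 5 lower members and efficiency 2 higher and 15 lower, since fewer genes were counted. The cause of the other changes was not tested. No direction was reversed for a called member. On whole reads edgeR called 23 members higher and 9 lower in RNA and 4 higher and 17 lower in efficiency. Over all genes it called 2631 higher and 2574 lower in RNA and 754 and 670 in efficiency. DESeq2 called 22 members higher and 9 lower in RNA and 5 and 18 in efficiency. Over all genes it called 2546 and 2658 in RNA and 814 and 875 in efficiency. The footprint depth of WT hearts, down to 6.67 M reads, and 5 against 4 hearts limit the precision.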
